A study of Mus musculus with 6 samples.

Results

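Lipocalin 2 and the genes that take up, store, release and recycle iron were followed in mouse microglia that had been cultured with neutrophils from the injured spinal cord. The 10 genes are Lcn2, Hp, Hmox1, Fth1, Ftl1, Slc40a1, Tfrc, Slc11a1, Slc11a2 and Ncoa4, out of 55335 gene identifiers in the table and 11395 tested. They were chosen by their roles with the FPKM values of these same libraries already known. Their levels and their differences between the arms are therefore given as a description, with no p-value, and the number that met a call rule is set beside its background only.

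Expression was measured as FPKM (fragments per kilobase of transcript, scaled to the mapped fragments of the library), a scale on which genes of different length can be set side by side. The microglia were wild type in both arms. They were grown for 14 days from the whole brains of newborn C57BL/6 mice and detached by shaking. The neutrophils were isolated with magnetic beads from spinal cord lesions 3 days after injury, from Cd177 WT mice in one arm and from mice with a constitutive knockout of Cd177 (Cd177-/-, KO) in the other. The cells shared a culture for 24 h, after which microglia were collected by flow sorting as cells negative for the neutrophil protein Ly6G. There were 3 libraries per arm, called WT1 to WT3 and KO1 to KO3 by the genotype of the neutrophils. No label states that libraries of the same arm are independent cultures, so every p-value below measures only the spread between these libraries. Microglia without neutrophils were not analysed here, so each difference is between the arms, not from a resting state. As newborn brain cells kept in culture, they are a model of microglia and not the cells of the lesion itself.

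The labelled cell type was only in part borne out by its markers. Of 20 microglia and macrophage transcripts 14 passed the filter on low values, and their summed level over all 20 was 1795 to 1861 FPKM in the WT and 1938 to 1997 FPKM in the KO libraries. Lyz2, Cd68, Ctss and Tyrobp, which macrophages share, each stood above 100 FPKM in every library. The sum hides changes in both directions. With KO neutrophils 7 of the 14 were called higher and 3 lower (limma adjusted p under 0.05). Of all 11395 genes tested 24.5% were called higher and 18.8% lower. Mertk is among the 7 although it passed the filter through the KO arm alone, where it is high. Its mean was 0.490 FPKM with WT neutrophils, against 2.07 with KO neutrophils. Adgre1, which encodes the macrophage antigen F4/80, averaged 101 ± 2.67 FPKM over the WT libraries and 39.3 ± 1.56 FPKM over the KO libraries, and Trem2, a lipid-sensing receptor, averaged 12.0 ± 1.05 and 28.0 ± 0.364 FPKM (SD, n = 3 each). Their part in the differences of the iron genes was not tested. C1qa was listed at 0 in every library, and P2ry12, Aif1, C1qb, C1qc and Tmem119, which mark microglia of the brain, stood under 1 FPKM. Pgrmc1, a widely expressed heme-binding protein, was also listed at 0 in all 6 libraries, so a 0 in this table may be a failed estimate. An estimate from the smallest steps between low FPKM values gave a depth per library of 15.6 to 19.2 in units of 1e+06 fragments.

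Iron enters cells bound to transferrin through the transferrin receptor, is moved across membranes by divalent metal transporters, is stored inside a shell of ferritin heavy and light chains and leaves through ferroportin. Macrophages and microglia also recover iron from the heme of engulfed cells, which heme oxygenase opens. During infection and inflammation phagocytes are known to hold iron back from microbes, and lipocalin 2, which binds the iron carriers (siderophores) of bacteria, is part of that defence.

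Much of this control acts on RNA. Iron regulatory proteins bind a short hairpin, the iron-responsive element (IRE), when iron is scarce. An IRE in the 5′ UTR then holds back translation, whereas IREs in the 3′ UTR protect the transcript from decay. The elements that a strict pattern found in the annotated transcripts (GENCODE M21, build GRCm38) are shown because they tie at least 4 of the 10 genes to that switch. The capitals mark the unpaired C and the 6-base loop, and the 5 bases on each side of the loop pair with each other.
Fth1, 5′ UTR, chr19:9982736-9982756, plus strand: tgCttcaaCAGTGCttgaacg
Ftl1, 5′ UTR, chr7:45459783-45459803, minus strand: tgCttcaaCAGTGTttgaacg
Slc40a1, 5′ UTR, chr1:45925469-45925489, minus strand: ttCagctaCAGTGTtagctaa
Tfrc, 3′ UTR, chr16:32631223-32631243, plus strand: atCggaagCAGTGCcttccat
Tfrc, 3′ UTR, chr16:32631602-32631622, plus strand: atCgggagCAGTGTcttccat
Tfrc, 3′ UTR, chr16:32631667-32631687, plus strand: atCggagaCAGTGAtctccat
Tfrc, 3′ UTR, chr16:32631714-32631734, plus strand: atCgggaaCAGTGTttcccat
The search required an unpaired C, a stem of 5 pairs with G-T pairs allowed and a loop of CAGTGN on the sense strand. It found such letters in 294 of 21849 protein-coding genes (1.346%). Elements that depart from this pattern are missed, so a gene without a match, among the 10 or elsewhere, may still hold an IRE. The Fth1 element lies in 4 of its 5 annotated coding transcripts, that of Ftl1 in 1 of 2, that of Slc40a1 in 1 of 4 and those of Tfrc in 1 of 3. A table of FPKM per gene does not tell which transcript was present. The same letters were found in 2 of the 105 other genes examined below.

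The genes differed between the arms in both directions, as the plot of FPKM by library shows. With KO neutrophils 7 of the 10 were lower and 3 higher, and all 10 met the call rule (limma adjusted p under 0.05), a rule met by 43.3% of all 11395 genes tested, 24.5% as higher and 18.8% as lower. After each library was rescaled to the same sum, 2183 of all genes were called higher and 2661 lower, against 2789 and 2141 as deposited. The arms did not overlap for any of the 10 genes, against 55.8% of all genes tested. All 10 passed the filter of a mean of at least 1 FPKM, Lcn2 through the WT arm alone. Since the genes were selected on this contrast, these shares are a background only and nothing is read from them. In bulk RNA, fewer cells that express a gene and less RNA per cell cannot be told apart.

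**Figure D1:**
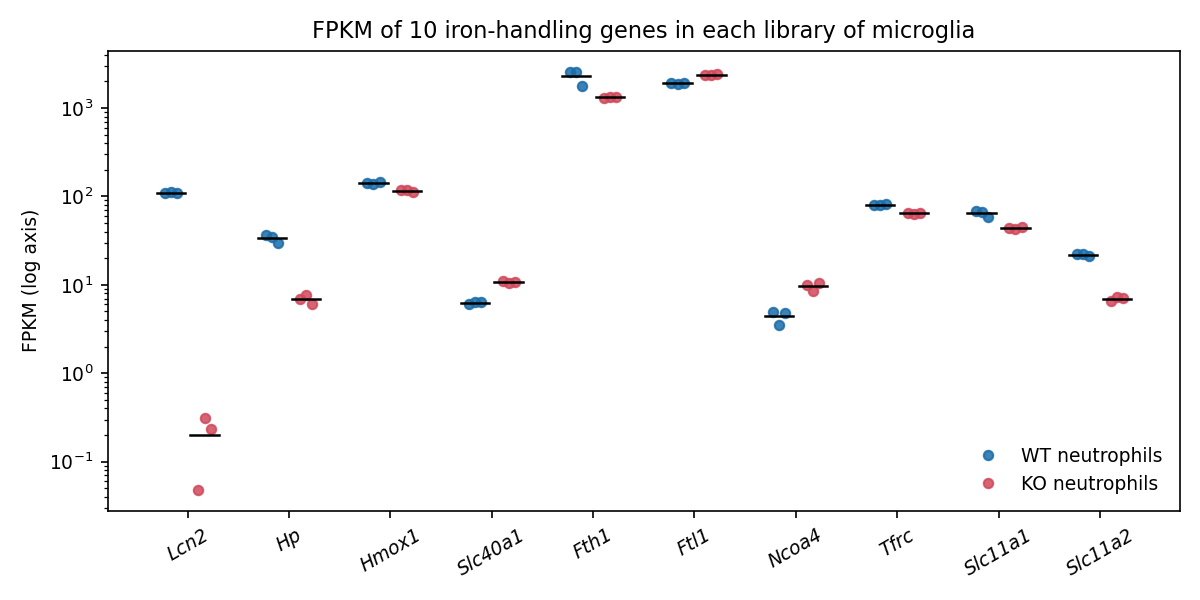
FPKM (log axis) of the 10 genes in each of 6 libraries, 3 with WT neutrophils (blue) and 3 with KO neutrophils (red). Horizontal lines are arm means. Lcn2 shows the widest gap of the 10, from 109 FPKM or more down to 0.314 FPKM or less, while Ftl1, Slc40a1 and Ncoa4 are the genes whose KO libraries lie above the WT libraries.

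Lcn2 (chromosome 2, 32384633 to 32388252, minus strand) encodes the secreted siderophore binder lipocalin 2. It had 109, 113 and 109 FPKM in WT1, WT2 and WT3, and 0.048, 0.314 and 0.237 FPKM in KO1, KO2 and KO3. The transcript was abundant in each library with WT neutrophils and close to undetected in each library with KO neutrophils. A floor of 3 fragments corresponds to 0.208 FPKM in the KO arm, which KO2 and KO3 exceeded and KO1 did not, and floors cover counting error only. The WT mean was 351 times the highest KO value. On the log2(FPKM + 1) scale the fitted difference, KO minus WT, was -6.54 (SE 0.085). By its mean level Lcn2 stood at percentile 96.9 of the genes tested in the WT arm and at percentile 0.132 in the KO arm. With a pseudocount of 0.1 the fitted difference was -8.65.

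Hp (chromosome 8, 109575128 to 109579172, minus strand) encodes haptoglobin, which captures hemoglobin set free from red cells. Its level was 36.3, 34.4 and 29.9 FPKM after culture with WT neutrophils and 6.84, 7.60 and 6.13 once the neutrophils lacked Cd177. The lowest WT library, WT3, still lay well above the highest KO library. The WT mean of 33.5 ± 3.25 FPKM was 4.89 times the KO mean of 6.86 ± 0.735 FPKM (SD, n = 3 each), and 5.15 times without WT3. The fitted log2 difference was -2.13 (SE 0.093). Like Lcn2, Hp moved from the upper part of the expressed genes, at percentile 87.8 in the WT arm, to percentile 45.5 in the KO arm.

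Hmox1 (chromosome 8, 75093621 to 75100589, plus strand) encodes heme oxygenase 1, the inducible enzyme that opens heme and frees its iron. It was expressed strongly in both arms, at 142, 137 and 145 FPKM in WT1, WT2 and WT3 and at 117, 117 and 111 FPKM in KO1, KO2 and KO3. Every KO library was below every WT library, but the gap was narrow beside those of Lcn2 and Hp. On the fitted log2 scale the difference was -0.30 (SE 0.031). Hmox2, the constitutive enzyme, had a mean of 27.4 ± 1.59 FPKM in the WT arm and 28.1 ± 0.755 FPKM in the KO arm (SD, n = 3 each), and its change of 0.04 (SE 0.047) did not pass the test (limma adjusted p = 0.54). Within a library the ratio of Hmox1 to Hmox2 FPKM was 4.81 to 5.66 in the WT and 3.98 to 4.26 in the KO arm.

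The ferritin chains went in opposite directions. Fth1 (chromosome 19, 9980598 to 9985098, plus strand), the heavy chain that oxidises iron for storage, had 2576, 2556 and 1789 FPKM in the WT libraries and 1301, 1318 and 1337 FPKM in the KO libraries. WT1 and WT2 were close together while WT3 stood at 69.7% of their mean, and the 3 KO libraries were nearly level below all of them. Fitted on the log2 scale, this was -0.79 (SE 0.139), or -0.96 without WT3. The ratio of the WT to the KO mean was 1.75 with all libraries and 1.95 without WT3.

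Ftl1 (chromosome 7, 45457944 to 45459884, minus strand), the light chain that helps to form the mineral core, had 1896, 1891 and 1928 FPKM in the WT libraries and 2383, 2387 and 2393 FPKM in the KO libraries. The libraries of each arm lay close together and every KO library was above every WT library. The fitted log2 difference was 0.33 (SE 0.014). Both chains were among the most abundant transcripts, at percentile 99.8 or above of the genes tested in either arm. Together they held 1.18% to 1.42% of the FPKM sum of a WT library and 1.13% to 1.15% of that of a KO library.

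Because the chains assemble into 1 shell, their ratio was taken within each library, where the scale of the library cancels. Fth1 to Ftl1 FPKM was 1.36, 1.35 and 0.928 in the WT libraries and 0.546, 0.552 and 0.559 in the KO libraries. The heavy chain transcript exceeded the light chain in WT1 and WT2, was just below it in WT3, and was well below it in all KO libraries. Processed copies of the ferritin genes may share reads with them. Ftl1-ps1 had 168, 66.7 and 66.9 FPKM in the WT and 93.5, 221 and 84.8 FPKM in the KO arm, and Ftl2-ps ran from 110 to 116 FPKM in the WT and from 149 to 155 FPKM in the KO libraries. These copies and Ftl1-ps2 added 9.19% to 15.6% to Ftl1, and with them the light chain summed to 2072 to 2180 FPKM in the WT and 2626 to 2760 FPKM in the KO arm, still without overlap. The annotated heavy chain copies stood under 0.5 FPKM in each library.

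Fth1 varied most among these genes within the WT arm. Its coefficient of variation was 19.4% in the WT arm and 1.37% in the KO arm. For the 29 genes within 2-fold of its mean level the median was 1.31% in the WT arm. The annotated coding transcripts of Fth1 run from 333 to 1494 bases, and FPKM depends on the length assigned, but whether that or anything else set WT3 apart was not tested. Slc11a1, Hp and Slc11a2 were also lowest in WT3 among the WT libraries, the first pair at 85.3% and 84.8% of the mean of WT1 and WT2 and Slc11a2 close to the others, whereas Hmox1, Ftl1 and Tfrc were highest there.

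Ncoa4 (chromosome 14, 32159865 to 32179855, plus strand) encodes the receptor that carries ferritin to the lysosome, where its iron is freed. It had 4.98, 3.55 and 4.76 FPKM in the WT libraries and 10.1, 8.54 and 10.6 FPKM in the KO libraries. The lowest KO library was above the highest WT library, although the spread within each arm was wide, with a coefficient of variation of 17.3% in the WT and 11.0% in the KO arm. Its fitted log2 difference was 0.99 (SE 0.124). Thus the level of the ferritin receptor transcript and that of the light chain were higher, and that of the heavy chain lower, with KO neutrophils.

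Slc40a1 (chromosome 1, 45908068 to 45926523, minus strand) encodes ferroportin, the known exporter of iron from cells. Its level was 6.11, 6.48 and 6.35 FPKM in the WT libraries and 11.0, 10.5 and 10.8 FPKM in the KO libraries. Both arms were tight, and the KO libraries were all higher. The fitted log2 difference was 0.69 (SE 0.040), and the KO mean was 1.71 times the WT mean.

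Tfrc (chromosome 16, 32608920 to 32632794, plus strand) encodes the transferrin receptor, the main entry for iron from plasma. It went the other way, with 79.7, 80.1 and 82.4 FPKM in the WT arm and 64.9, 63.1 and 65.0 FPKM in the KO arm. The arms were again well separated beside their spread. The fitted log2 difference was -0.32 (SE 0.024). Put together as export over import, the ratio of Slc40a1 to Tfrc FPKM within a library was 0.0767, 0.0810 and 0.0771 in the WT libraries and 0.170, 0.167 and 0.166 in the KO libraries, a mean 2.14 times higher in the KO arm.

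Both natural resistance-associated macrophage protein genes were lower with KO neutrophils, but by different amounts. Slc11a2 (chromosome 15, 100387898 to 100425072, minus strand), the divalent metal transporter 1 that passes iron out of endosomes, had 22.4, 22.1 and 21.4 FPKM in the WT and 6.53, 7.26 and 7.09 FPKM in the KO arm. The WT mean was 3.16 times the KO mean, and the fitted log2 difference was -1.53 (SE 0.046). Slc11a1 (chromosome 1, 74375195 to 74386062, plus strand), a pump of the phagosome membrane, had 68.7, 66.9 and 57.8 FPKM in the WT and 44.3, 43.1 and 44.8 FPKM in the KO arm. WT3 was the lowest WT library and still above every KO library. Its fitted log2 difference was -0.54 (SE 0.065), and the WT mean was 1.46 times the KO mean, or 1.54 times without WT3. The ratio of Slc11a1 to Slc11a2 FPKM therefore stood at 2.71 to 3.06 in the WT libraries and at 5.94 to 6.78 in the KO libraries.

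**Figure D2:**
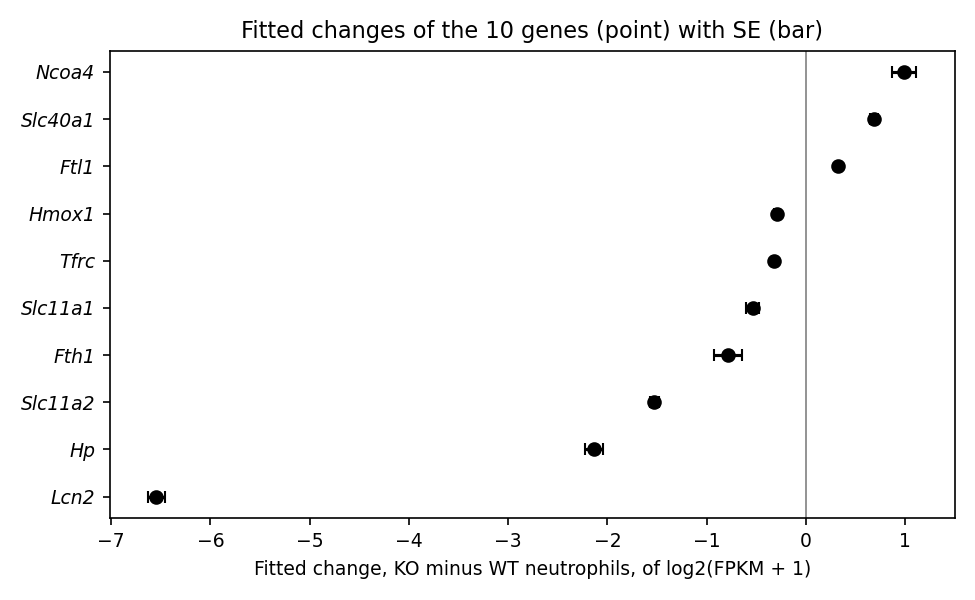
Fitted difference, KO minus WT neutrophils, of log2(FPKM + 1) for each of the 10 genes (points) with its SE (bars). The values run from -6.54 for Lcn2 to 0.99 for Ncoa4, and Lcn2, Hp and Slc11a2 stand apart at -1.53 or lower.

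By level in FPKM the order with WT neutrophils was Fth1, Ftl1, Hmox1, Lcn2, Tfrc, Slc11a1, Hp, Slc11a2, Slc40a1 and Ncoa4. In that order Fth1 and Ftl1 overlapped, since Fth1 in WT3 was below Ftl1. With KO neutrophils the order was Ftl1, Fth1, Hmox1, Tfrc, Slc11a1, Slc40a1, Ncoa4, Slc11a2, Hp and Lcn2. There Slc40a1 and Ncoa4 overlapped, as did Slc11a2 and Hp. Lcn2 thus stood in the fourth place in the WT arm and the last in the KO arm.

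**Figure D3:**
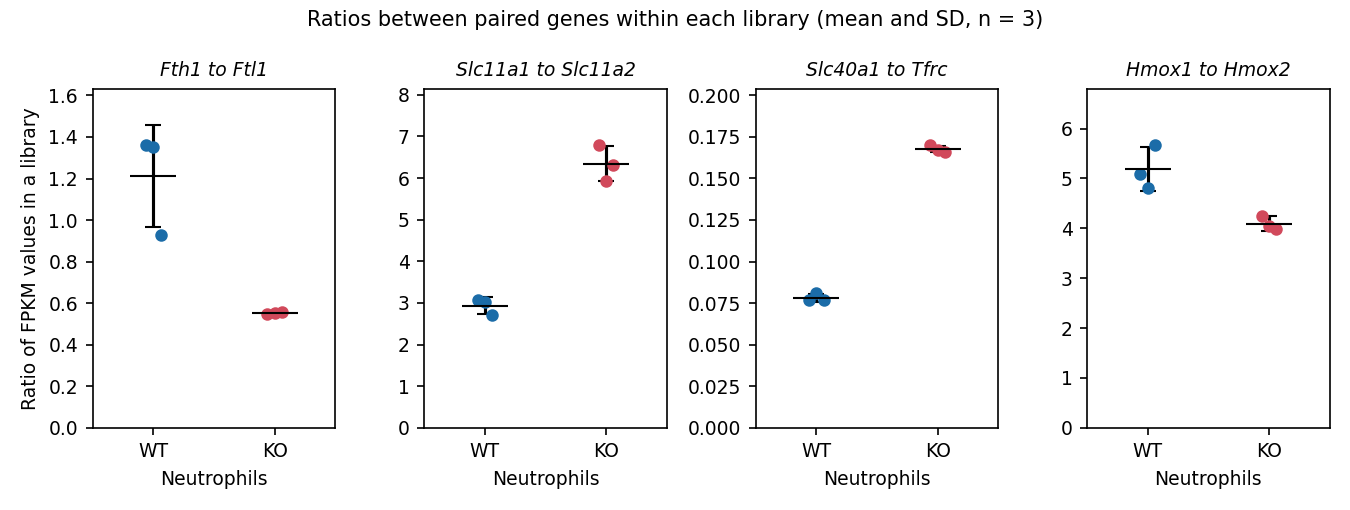
Ratio of the FPKM of paired genes within each library, with WT (blue) or KO (red) neutrophils, and the mean and SD of each arm (n = 3). Fth1 to Ftl1 and Hmox1 to Hmox2 are lower in the KO libraries and Slc11a1 to Slc11a2 and Slc40a1 to Tfrc are higher, with no overlap in the 4 panels.

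The iron-responsive elements printed above sat in genes that differed in both directions. Of the genes with the element in the 5′ UTR, Ftl1 and Slc40a1 were higher and Fth1 lower with KO neutrophils, and Tfrc, with 4 elements in the 3′ UTR, was lower. The iron regulatory proteins themselves are encoded by Aco1 and Ireb2. Aco1 rose from 6.72 ± 0.180 to 8.45 ± 0.538 FPKM (SD, n = 3 each), by 0.29 on the log2 scale (SE 0.053, limma adjusted p = 0.00558). Ireb2 had 16.2 ± 0.200 and 16.8 ± 0.667 FPKM, which did not pass the test (limma adjusted p = 0.341). Fbxl5, which marks the Ireb2 protein for breakdown when iron is plentiful, did not pass either, with 6.08 ± 0.342 and 5.70 ± 0.164 FPKM (limma adjusted p = 0.268). RNA levels say nothing here of the binding of these proteins.

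Next, the upstream bases of the genes were searched for named motifs. RefSeq (GRCm38.p6) gave 10 promoter windows for 6 of the 10 genes, Lcn2, Fth1, Ftl1, Ncoa4, Slc11a1 and Tfrc, and the 250 bases before each start were read. The C/EBP pair of half-sites, TTNNGNAA on either strand, is held by 36.8% of all 32851 windows. It was found once in Lcn2, 216 to 209 bases before the start, and also in Fth1, Ftl1 and Slc11a1. The NF-kB consensus, held by 7.25% of windows, was found in Ftl1 and Ncoa4. The core of the antioxidant response element, TGACNNNGC on either strand (10.2% of windows), was found in Ncoa4, as was TATAAA on the sense strand (7.59%). CACGTG (6.02%) was found in none of the 10 windows. These matches describe letters in a window and no binding was measured.

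Whether the wider machinery moved was asked of 105 other genes of iron, heme and the acute phase, of which 61 passed the filter and 28 were listed at 0 in every library. Of the 61 tested, 33 were called (54.1%, against the 43.3% of all genes given above). Of these, 19 rose and 14 fell with KO neutrophils, and 28 did not pass. Cp, described below, is among the 14 although it passed the filter through the WT arm alone. Their median log2 change was 0.06, beside 0.02 for all genes tested. After rescaling to a common sum 16 were called higher and 15 lower.

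**Figure D4:**
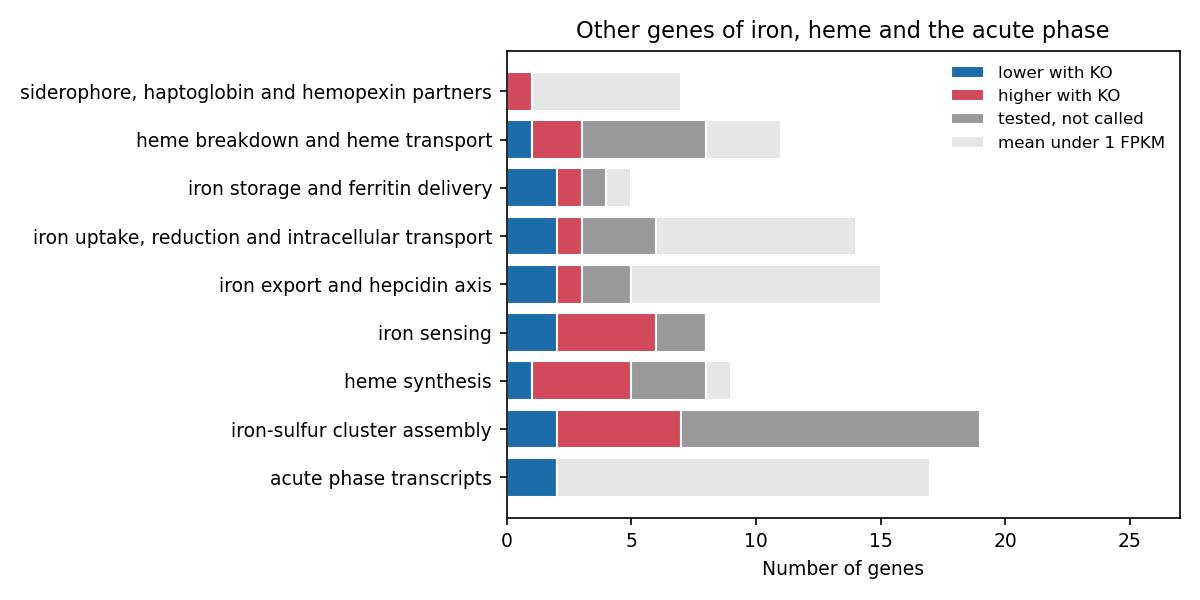
Number of other genes in 9 role lists that were called lower (blue) or higher (red) with KO neutrophils, tested but not called (dark grey), or under a mean of 1 FPKM and not tested (light grey). Each of the lists with more than 2 tested genes holds calls in both directions.

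Partners of lipocalin 2 and of haptoglobin were mostly listed at 0 or near it, where a 0 may be a failed estimate. Slc22a17, the lipocalin 2 receptor, stood at 0.014 FPKM or less, and Bdh2, which makes a mammalian siderophore, at 0.024 to 0.173 FPKM, below the floor of 3 fragments in each library. Cd163, the receptor for haptoglobin with hemoglobin, and Ltf, lactoferrin, were listed at 0 in all libraries, and Hpx, hemopexin, had 0.063 FPKM in WT3 alone. Lrp1, the receptor for hemopexin with heme, was the 1 tested gene of 7 on this list and rose from 45.6 ± 0.357 to 54.7 ± 0.815 FPKM (SD, n = 3 each), by 0.26 on the log2 scale (SE 0.022, limma adjusted p = 0.000244).

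Past heme oxygenase, biliverdin reductases turn the opened ring into bilirubin, and their transcripts went apart. Blvra rose from 30.8 ± 0.613 to 43.7 ± 0.516 FPKM (log2 change 0.49, SE 0.026, limma adjusted p = 2.61e-05) and Blvrb fell from 6.22 ± 0.715 to 4.15 ± 0.303 FPKM (SD, n = 3 each; limma adjusted p = 0.00475). Hebp1, a heme-binding protein, rose from 3.28 ± 0.187 to 6.40 ± 0.534 FPKM (SD, n = 3 each), by 0.79 on the log2 scale (limma adjusted p = 0.000254). In all 8 genes of heme breakdown and transport were tested, of which 2 rose, 1 fell and 5 did not pass. Bach1, the heme-sensing repressor of Hmox1, was among the latter, with 9.72 ± 0.548 and 10.5 ± 0.364 FPKM (limma adjusted p = 0.17).

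Of the iron chaperones and ferritin receptors 4 were tested, of which 1 rose and 2 fell. Pcbp1, a chaperone that loads ferritin, rose from 134 ± 0.754 to 161 ± 2.26 FPKM (log2 change 0.27, SE 0.019, limma adjusted p = 9.7e-05). Pcbp2 and Tax1bp1 fell by 0.10 and 0.09 on the log2 scale (limma adjusted p = 0.0296 and 0.0455), and neither call held under every alternative. For uptake and transport within the cell 6 of 14 genes were tested, of which 1 rose and 2 fell. Steap3, the endosomal ferrireductase, rose from 4.38 ± 0.353 to 7.64 ± 0.0497 FPKM (SD, n = 3 each), by 0.68 on the log2 scale (limma adjusted p = 0.000199). Slc25a37, mitoferrin 1, which brings iron into mitochondria, fell from 19.3 ± 0.624 to 13.7 ± 0.0657 FPKM (log2 change -0.47, limma adjusted p = 9.92e-05), and Slc39a14, an importer of iron not bound to transferrin, fell from 9.70 ± 0.778 to 7.43 ± 0.328 FPKM (log2 change -0.34, limma adjusted p = 0.00648). Trf, transferrin itself, had 17.4 ± 0.367 and 17.3 ± 0.332 FPKM and did not pass (limma adjusted p = 0.834), and Steap4, a ferrireductase, was listed at 0.

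Among genes of iron export and of the hepcidin axis 5 of 15 were tested. Cp, ceruloplasmin, the ferroxidase that works beside ferroportin, had 4.36, 4.20 and 4.87 FPKM in the WT libraries and 0.695, 0.820 and 0.706 FPKM in the KO libraries. All KO libraries were far below the WT libraries and above their floor of 0.390 FPKM, and the fitted difference was -1.65 (log2, SE 0.071). Its KO mean of 0.740 FPKM was under the 1 FPKM minimum, so Cp, like Lcn2, entered the fit through the WT arm alone, where it is high, and its difference is given with no p-value. Hfe, a partner of the transferrin receptors, rose from 1.55 ± 0.364 to 3.21 ± 0.159 FPKM (SD, n = 3 each), by 0.73 on the log2 scale (limma adjusted p = 0.00246), and Smad1, which carries the signal to the hepcidin gene in liver, fell from 5.28 ± 0.168 to 4.09 ± 0.310 FPKM (limma adjusted p = 0.00747). Hamp, hepcidin, was listed at 0 in all libraries.

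All 8 genes of iron sensing were tested, of which 4 rose and 2 fell. Epas1, the hypoxia-inducible factor 2 alpha, rose from 8.09 ± 0.0793 to 15.6 ± 0.897 FPKM (log2 change 0.87, SE 0.046, limma adjusted p = 2.86e-05). Skp1, a subunit of the ligase that works with Fbxl5, rose from 57.7 ± 2.17 to 75.6 ± 2.77 FPKM (SD, n = 3 each; limma adjusted p = 0.00049). Hif1a, the sister factor of Epas1, fell from 56.3 ± 0.645 to 48.2 ± 1.29 FPKM (log2 change -0.22, limma adjusted p = 0.00107).

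In heme synthesis 4 of 8 tested genes rose and 1 fell. The one that fell was Alas1, the enzyme of the first and controlling step, from 10.1 ± 0.543 to 6.22 ± 0.511 FPKM (log2 change -0.62, SE 0.066, limma adjusted p = 0.000567). Urod and Alad, later enzymes of the path, rose from 5.29 ± 0.486 to 7.13 ± 0.487 FPKM (limma adjusted p = 0.00873) and from 3.53 ± 0.179 to 4.36 ± 0.0893 FPKM (limma adjusted p = 0.0104). Of 19 genes of iron-sulfur cluster assembly 5 rose and 2 fell. Lyrm4, a partner of the cysteine desulfurase, fell from 16.7 ± 0.976 to 11.6 ± 0.366 FPKM (limma adjusted p = 0.000519), whereas Nfs1, the desulfurase, rose from 14.8 ± 0.795 to 18.1 ± 0.714 FPKM (SD, n = 3 each; limma adjusted p = 0.00553).

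Lcn2 and Hp are also acute phase transcripts, which liver and inflamed tissue make. Of 17 others 11 were listed at 0 in every library and only Saa3 and C3 passed the filter, and both fell. Saa3, the serum amyloid A of macrophages, had 28.9, 30.7 and 31.2 FPKM in the WT and 1.52, 1.82 and 1.83 FPKM in the KO arm (log2 change -3.52, limma adjusted p = 2.91e-07). C3, the central complement protein, had 13.7, 13.6 and 14.0 FPKM and 4.65, 4.68 and 4.41 FPKM (log2 change -1.40, limma adjusted p = 1.81e-06). For both genes each KO library was far below each WT library.

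The genes whose levels lay nearest to those of Lcn2 over the 6 libraries, by Euclidean distance of log2(FPKM + 1), were Csf3, Cxcl2 and Il1a, at distances of 0.588, 0.788 and 3.13. Csf3, granulocyte colony-stimulating factor, had 122, 127 and 125 FPKM in the WT arm and was listed at 0 in the KO arm. Cxcl2, a neutrophil chemokine, had 119, 120 and 124 FPKM against 0.547, 0.581 and 0.661 FPKM. Il1a, interleukin 1 alpha, was less near, with 54.9 to 59.4 FPKM and 2.33 to 2.59 FPKM. They were picked for this likeness, which is a description over 6 libraries in 2 arms.

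Lcn2 and Hp are made by neutrophils too, so markers of the other cells that the culture or the sort could hold were read beside them. Of 24 neutrophil transcripts none passed the filter. In all libraries 9 were listed at 0, among them Ly6g, S100a9, Ltf, Mpo and Elane, and a 0 may be a failed estimate. The levels of all 24 summed to 4.02 to 4.52 FPKM in the WT libraries and 1.82 to 2.34 FPKM in the KO libraries. The sum thus moved in the same direction as Lcn2 and Hp. The sum was below Hp in both arms, but below Lcn2 in the WT arm alone, and its part in their difference was not tested. The most abundant were Trem1 (0.299 to 1.08 FPKM), Mcemp1 (0.245 to 1.13 FPKM) and Csf3r (0.223 to 0.744 FPKM), which macrophages also express. S100a8 had 0.310 to 0.456 FPKM in the WT and 0 to 0.181 FPKM in the KO arm. Camp had 0.234 to 0.384 FPKM and 0 to 0.156 FPKM, so for both the arms did not overlap. Prtn3, Ngp and Olfm4 had the higher mean in the KO arm, with overlapping arms. Cd177, the gene removed from the neutrophils, had 0.477, 0.113 and 0.151 FPKM in the WT libraries and 0.109, 0.022 and 0.084 FPKM in the KO libraries. Its mean differed by -0.175 FPKM, KO minus WT (exact two-sided permutation p = 0.1, the smallest that 3 libraries against 3 can give, so the test could not pass 0.05). The arms did not overlap, but only just, and the values lay near the floor of 3 fragments, so they are a weak check of the neutrophil genotype.

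**Figure D5:**
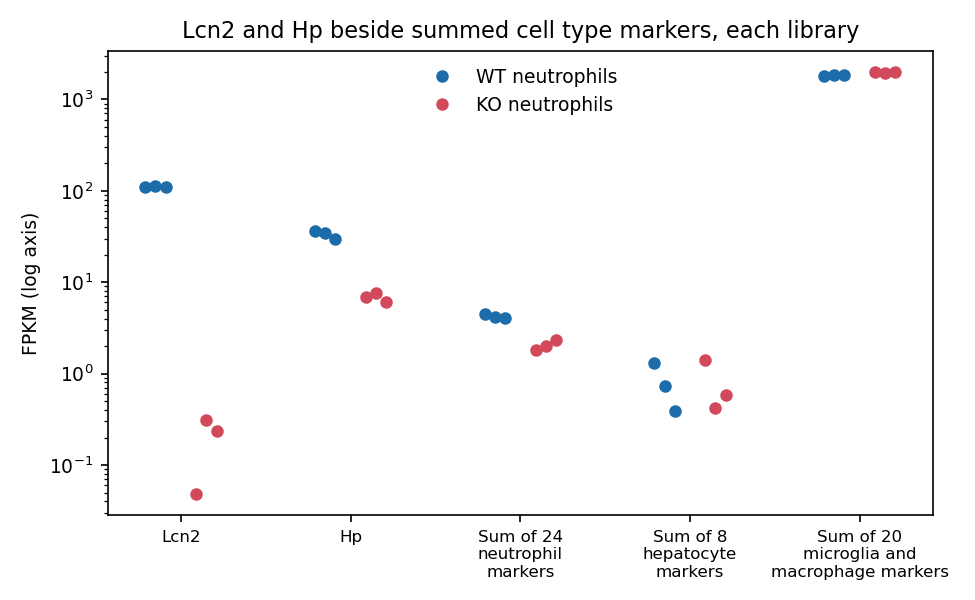
FPKM (log axis) of Lcn2 and Hp and the summed FPKM of marker lists of neutrophils (24 genes), hepatocytes (8 genes) and microglia and macrophages (20 genes) in each library with WT (blue) or KO (red) neutrophils. The neutrophil sum, at most 4.52 FPKM, lies below Lcn2 in the WT arm and below Hp in both arms.

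Markers of astrocytes, hepatocytes and red cells were listed at or near 0. Of 8 astrocyte markers 5 were listed at 0 in every library and the list summed to at most 0.265 FPKM, with Gfap at 0.030 FPKM or less. Of 8 red cell transcripts 4 were at 0 and the sum was at most 0.199 FPKM, with Hbb-bs and Hbb-bt at 0. Of 8 hepatocyte transcripts 7 were at 0, Alb and Ttr among them, and Apoa2 alone gave 0.392 to 1.42 FPKM, with overlapping arms.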

How the data were processed

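The authors deposited 1 table of FPKM values per gene and library, with replicates not pooled. The submitters' processing notes name fastp 0.17.1, HISAT2 2.1.0, DESeq2 1.18.1 and R 3.4.3. The counting program, genome build and annotation are not given in the sources used here, and the library kit and sequencer in the labels are not those in the study's methods. The authors tested counts with DESeq2. FPKM values cannot enter a count test, so limma 3.58.1 in R 4.3.3 (lmFit, eBayes with a trend) was used on log2(FPKM + 1), KO minus WT, without covariates, after a check on simulated data. This scale understates the change of low genes. A mean over libraries of at least 1 FPKM was required (11395 genes), p-values were adjusted by Benjamini-Hochberg over all of them, and an adjusted p under 0.05 was a call.

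Symbols, positions and transcripts came from GENCODE M21 (GRCm38), which may not be the authors' annotation. It matched 55154 of 55335 identifiers, and 3 list genes (Hjv, Skp1 and Fdx2) were found through older names. Steps between low values gave an estimated depth of 15.6 to 19.2 in units of 1e+06 fragments, but only 23.5% to 24.4% of low values came out whole (within 0.05 of a whole number, 10.0% by chance), so reads were not recovered and edgeR was not run. Floors of 3 fragments use the shortest coding transcript and are the highest among the libraries of an arm.

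The 10 genes, the role lists and the marker lists were chosen with earlier results of these data known. Genes were named by a rule. It took the 10 genes, Cd177, ferritin copies at 1 FPKM or more, 15 preset partners and regulators, up to 3 called genes of smallest p per role list, the 3 most abundant neutrophil markers and the 3 genes nearest to Lcn2. Of the genes so named, 1 is not reported here. Pgrmc1 and the markers of the cell type checks were named after their values were seen. Same-numbered libraries did not deviate together (correlations of -0.075, -0.052 and -0.005). The numbers were therefore not used as pairs in the main fit, although this cannot show that the cultures were unpaired by design. As alternatives, the fit was repeated without the filter, with a minimum mean of 5 FPKM, with a pseudocount of 0.1, with a replicate block, with median centring, after rescaling all libraries to 1 sum (TPM scale), without the variance trend and with each library left out.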

Additional observations from a re-analysis of the deposited data

How the results depend on the processing

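None of the 10 genes changed direction under any of the 130 alternatives run for them. In 8 the fitted difference moved by more than the spread within arms. With a pseudocount of 0.1 it was -8.65 for Lcn2, -2.27 for Hp, 0.76 for Slc40a1 and -1.65 for Slc11a2. On the TPM scale it was -0.34 for Hmox1, 0.28 for Ftl1, 0.64 for Slc40a1 and -0.37 for Tfrc. Of the 33 calls among the other iron genes, 27 to 33 held under each alternative, and over all genes 3763 to 4931 were called. Tax1bp1 lost its call in 8 of its 13 alternatives and Pcbp2 in 5 of 13, and no other named gene outside the 10 changed its call in the alternatives run for it. Calls of the 10 genes were not followed across alternatives. With a replicate block 4212 genes and 32 of the other iron genes were called, 28 of them among the 33 calls without the block. Low genes are limited by a floor of 3 fragments, and 3 libraries per arm limit every estimate.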
